A study of Mus musculus with 3 samples.

Results

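The proteasome is the large protease that degrades proteins tagged with ubiquitin, and 50 of the 24901 gene rows carry the names of its parts. They were the protein-coding rows whose symbol begins with Psm, then a letter from a to g and a digit. Of these, 36 code for subunits and 14 for activators, an inhibitor, assembly chaperones and 1 gene that shares only the name. Psmc3ip codes for a meiotic recombination factor and not for a proteasome part. The rule leaves out Adrm1 and Sem1, which also code for subunits. Adrm1 is given below with the partner genes.

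CH12, a line of mouse B lymphoma, was the source of the mRNA, sequenced as 3 libraries with 1 library per group. The groups were control cells, cells given TGFb at 5 ng/ml for 6 h and cells given the same dose for 24 h. TGFb is a cytokine that acts through receptors and Smad proteins. All cells were of 1 line, no time in culture was given for the control, and no untreated 24 h library was used here, so time in culture and treatment cannot be told apart. With 1 library per group there was no test, no p-value and no replicate check.

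The proteasome has a barrel, the 20S core, closed by the 19S regulatory particle that binds ubiquitin, unfolds the substrate and feeds it in. The core is made of alpha rings that gate the entry and beta rings that hold the cutting sites. In B cells and other immune cells, 3 of the cutting subunits can be replaced by immunoproteasome subunits, which shape the peptides shown on MHC class I. The transcription factor Nfe2l1 is known to raise the genes of many subunits together when proteasome activity is short.

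The libraries held 27487221 to 64229801 counts after rounding, the fewest at 24 h and 51386081 in control. Libraries are compared in normalized CPM, in which TMM adjusts the library size, and genes are compared in TPM, which takes transcript length into account. The B cell markers Cd79a, Cd79b, Ms4a1, Pax5 and Cd74 were measured in each library, the lowest, Pax5, at 42.3 CPM or more. Genes that reached 1 CPM and 30 counts together in some library are called measured: 10754 genes in all, and 48 of the 50 members. Intervals after a ratio are exact 95% intervals of a ratio of counts and cover counting error only.

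The members outside the measured set were those of other tissues. Psma8, the testis form of an alpha subunit, had 0 counts in each library, and 3 counts, the limit that 0 allows, would be 0.0617 CPM for the control library, 0.0466 CPM for 6 h and 0.103 CPM for 24 h. Psmb11, the catalytic subunit of the thymus, lies beside Psmb5 on chromosome 14 and had 5, 10 and 3 counts in control, 6 h and 24 h. Neither gene was at a level that could be compared.

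The 31 standard subunits of the complete 26S particle were abundant and of similar level. In control they ran from 160 TPM for Psmd11 to 912 TPM for Psmb4, a 5.70-fold range with a median of 335 TPM. At 6 h the median was 326 TPM and the range 5.09-fold, and at 24 h the median was 268 TPM and the range 5.05-fold. The highest levels by mean over the libraries belonged to the core genes Psmb4, Psmb5 and Psma6, at 806, 677 and 585 TPM. The lowest belonged to Psmf1 at 27.3 TPM, Psme4 at 32.8 TPM and Psmd9 at 42.3 TPM, which code for an inhibitor, an alternative activator and an assembly chaperone. The plot of levels gives all 48 genes by role.

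**Figure D1:**
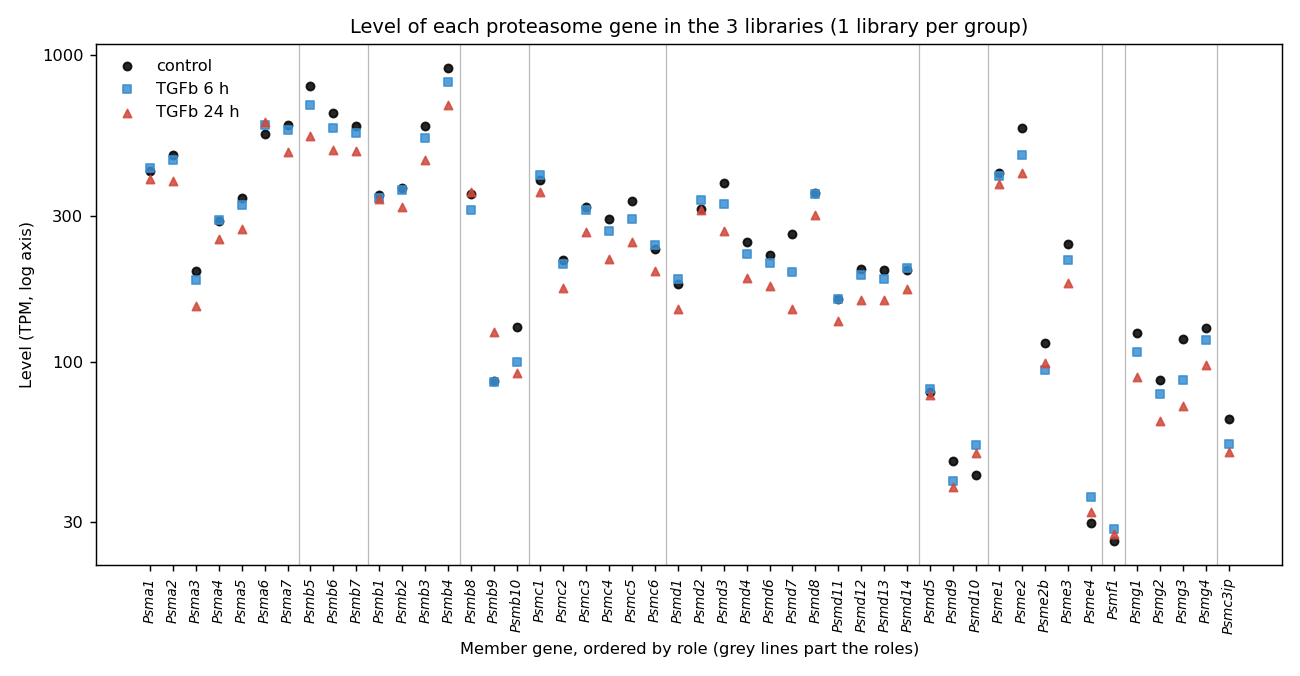
Level of each of the 48 measured members in TPM (log axis) in the control, 6 h and 24 h libraries, 1 point per library, ordered by role. The 24 h points lie below the control points for 30 of the 31 standard subunits (30.7% of all measured genes in TPM). Psma6, Psmb8, Psmb9, Psmd10, Psme4 and Psmf1 stand above their control levels at 24 h.

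The first comparison asked how these mRNAs stood early in TGFb treatment. At 6 h, 46 of the 48 measured members had a ratio to control below 1, where 50.7% of all measured genes did, and with TPM 35 members did, where 30.2% of all genes did. In bulk RNA, fewer cells with a gene on and less of its RNA per cell cannot be told apart. The median log2 ratio of the members was -0.23, which is 1.17-fold lower, and that of all measured genes was near 0. Only Psmg3 was at least 1.5-fold lower, 1 of 48 members (2.08%) against 2.14% of all genes, and 0 members were as far above control (6.77% of all genes). The members with a ratio above 1 were Psmd10, at a log2 ratio of 0.17, and Psme4, at 0.14.

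At 24 h, 47 of the 48 members had a ratio to control below 1, where 51.0% of all measured genes did. This comparison shares the control library with the one at 6 h. The median log2 ratio of the members was -0.56, or 1.48-fold lower, beside -0.01 over all measured genes. By the limit of 1.5-fold, 22 members (45.8%) were lower, against 11.8% of all genes, and 0 were higher, against 16.8%. At 2-fold, 2 members were lower (4.17%), Psmd7 and Psmg3, against 2.02% of all genes. The 1 member above control was Psmb9, an immunoproteasome subunit. Together the 48 genes took 10870 CPM in control, 9237 CPM at 6 h and 7460 CPM at 24 h, so at 24 h their summed mRNA was 1.46-fold lower (interval 1.45 to 1.46). In TPM the sums were 14300, 13410 and 11750, a smaller difference. The interval covers counting error and not the choice of scaling.

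The size of this difference depends on the scaling and on transcript length. Total counts and TPM place the median of all genes 0.158 and 0.265 higher on the log2 scale at 24 h than TMM does, and they gave 7 and 2 members at least 1.5-fold lower. These are 14.6% and 4.17% of the members, against 6.06% and 3.87% of the genes measured with those units. Short transcripts stood lower than long ones in the whole data set (Spearman's rho 0.385 across 10754 genes at 24 h, which share 2 libraries and are not replicates). The members are short: their median effective length was 1100 bases, against 2674 bases over all measured genes, and 44 of the 48 lie in the shorter 10 of 20 length bins. With the median of each length bin taken off, 43 members still had a ratio below 1 (51.1% of all genes) and their median was -0.31. With that removal 4 members (8.33%) were at least 1.5-fold lower, about the share of all genes (8.55%), so the excess past this limit did not remain. They were Psmd3, Psmd7, Psme3 and Psmg3, and Psmb9 alone was as far above control (15.1% of all genes).

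**Figure D2:**
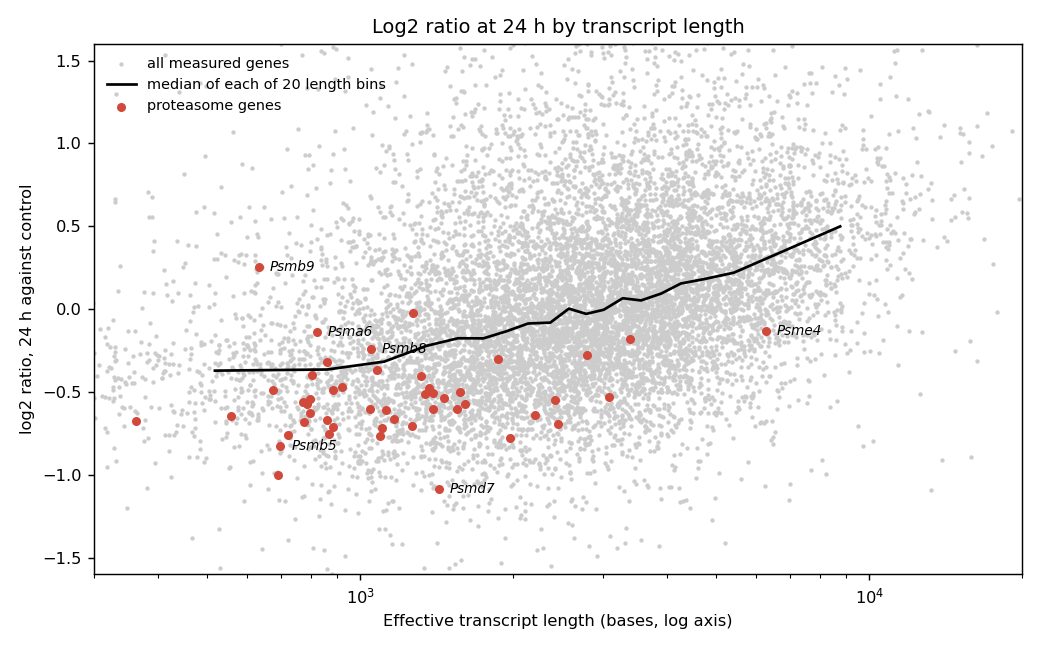
Log2 ratio of normalized CPM at 24 h against control (vertical axis) by effective transcript length in bases (log axis), for all measured genes in grey and the 48 proteasome genes in red, with the median of each of 20 length bins as a line. Values beyond the axis are not shown. Most proteasome genes lie at short lengths and below the line, Psmd7 furthest down, and Psmb9 lies above it.

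From 6 h to 24 h, the subunits stood lower again, within a narrow range. All 31 standard subunits had a ratio of 24 h to 6 h below 1, where 52.8% of all measured genes did, with a median log2 ratio of -0.35. With the length trend removed, 29 of the 31 were below 1 (5722 of 10754 genes), with a median of -0.25. With TPM, 30 were (3910 of 10754 genes), with a median of -0.23. The range was from -0.51 for Psmd7 to -0.08 for Psma6, and the spread between quartiles was 0.0511, against 0.376 over all measured genes. That larger set reaches down to 30 counts, and no set of like level or length was compared, so the 2 spreads are not of like genes. No member was 1.5-fold lower (2.11% of all genes) or higher (6.36%). This comparison uses the 6 h and 24 h libraries only and shares one of them with each of the others.

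The alpha ring genes, which form the gate of the core, had a median log2 ratio of -0.56 at 24 h, and 2 of 7 were at least 1.5-fold lower (11.8% of all measured genes). With the length trend removed the median was -0.21 and 0 of the 7 were that far lower. Psma3 stood lowest of them, at -0.64. Psma6 (chromosome 12, 55384222 to 55418459) had 309 CPM in control, 297 CPM at 6 h and 281 CPM at 24 h. That is 1.10-fold lower at 24 h (1.07 to 1.13), the smallest difference among the 31 standard subunits, and its sign turned with TPM, where it had 553 TPM in control and 607 TPM at 24 h.

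Of the beta ring genes without a cutting site, Psmb1 to Psmb4, 2 of 4 were at least 1.5-fold lower at 24 h (11.8% of all genes), with a median of -0.57. With the length trend removed the median was -0.21 and 0 of the 4 passed that limit. Psmb4 (chromosome 3, 94884324 to 94886958) had 481 CPM in control, 386 CPM at 6 h and 299 CPM at 24 h, 1.61-fold lower at 24 h (1.57 to 1.65). Its levels stepped down in order of time. Psmb1 lay closest to control in this set, at a log2 ratio of -0.32.

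The standard cutting subunits are coded by Psmb5, Psmb6 and Psmb7, and their summed mRNA was 1075 CPM in control, 866 CPM at 6 h and 669 CPM at 24 h. Psmb5 (chromosome 14, 54614120 to 54617995), whose product cuts after hydrophobic residues and is the main target of bortezomib, had 378, 292 and 213 CPM in control, 6 h and 24 h. It was 1.29-fold lower at 6 h (1.27 to 1.32) and 1.77-fold lower at 24 h (1.72 to 1.83). Psmb6 (chromosome 11, 70525324 to 70527858), which cuts after acidic residues, had 380, 303 and 239 CPM and was 1.59-fold lower at 24 h (1.55 to 1.64). Psmb7 (chromosome 2, 38588046 to 38643952), which cuts after basic residues, had 317, 271 and 218 CPM and was 1.46-fold lower at 24 h (1.42 to 1.5). All 3 genes followed the order control, 6 h, 24 h. With the length trend removed, Psmb5, Psmb6 and Psmb7 had log2 ratios of -0.16, -0.12 and -0.02 at 6 h. At 24 h these were -0.47, -0.32 and -0.19, and none of the 3 genes was then at least 1.5-fold lower (8.55% of all genes).

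The immunoproteasome subunits Psmb8, Psmb9 and Psmb10 take the places of Psmb5, Psmb6 and Psmb7 in new particles, and they differed in direction at 24 h. Psmb8 (chromosome 17, 34198195 to 34201454) had 250 CPM in control, 199 CPM at 6 h and 212 CPM at 24 h, 1.18-fold lower than control at 24 h (1.15 to 1.22), a sign that turned with TPM. Psmb9 (chromosome 17, 34182030 to 34187330) had 37.2, 32.9 and 44.3 CPM. It was 1.13-fold lower at 6 h (1.06 to 1.21) and, at 24 h, its log2 ratio to control was 0.25, below the limit of 1.5-fold. With the length trend removed its log2 ratio was 0.61, higher than 85.6% of measured genes. Psmb10 (chromosome 8, 105935728 to 105938392) had 96.3, 66.5 and 56.7 CPM, 1.70-fold lower at 24 h (1.61 to 1.8). With the length trend removed its log2 ratio at 24 h was -0.46, short of the limit of 1.5-fold. So of the 3 genes Psmb9 was above control at 24 h, Psmb8 was between its 6 h and control levels, and Psmb10 was lowest at 24 h.

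A ratio of these genes to the subunits they replace is free of the scaling between libraries. Psmb8 stood at 0.441 of Psmb5 in control by TPM, 0.453 at 6 h and 0.658 at 24 h, and from the counts the ratio at 24 h was 1.5 times that of control (1.44 to 1.56). Psmb9 stood at 0.133 of Psmb6 in control, 0.148 at 6 h and 0.254 at 24 h, and from the counts the last was 1.90 times that of control (1.75 to 2.05). Psmb10 stood at 0.220 of Psmb7 in control, 0.178 at 6 h and 0.189 at 24 h, 0.858 times control at 24 h (0.805 to 0.915). The first pair of ratios was highest at 24 h and the last was highest in control. Their log2 changes at 24 h were 0.53, 0.93 and -0.27 with the length trend removed.

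**Figure D3:**
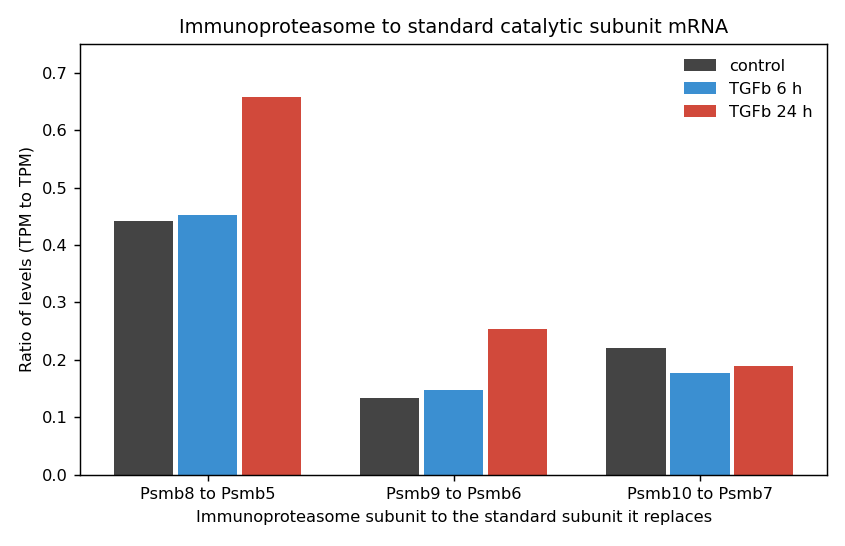
Ratio of the level (TPM) of each immunoproteasome subunit gene to that of the standard subunit gene it replaces, 1 bar per library, with no error bar since each group is 1 library. The bars for Psmb8 to Psmb5 and Psmb9 to Psmb6 are highest at 24 h, at 0.658 and 0.254, while Psmb10 to Psmb7 is highest in control, at 0.220.

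The 250 bases before the RefSeq start of the paired genes are shown because Psmb9 and Psmb8 parted from Psmb6 and Psmb5 at 24 h. They come from RefSeq on GRCm38.p6 and read 5′ to 3′ on the strand of the gene: Psmb9 at chr17:34187331-34187580 (minus strand), Psmb8 at chr17:34197945-34198194 (plus), Psmb5 at chr14:54617996-54618245 (minus) and Psmb6 at chr11:70525107-70525356 (plus), where the gene model begins inside the sequence printed. Capitals mark a match, on either strand, to 1 of 4 motifs: TGACNNNGC (the antioxidant response element core bound by Nrf factors), TTCNNNGAA (Stat factors), the interferon response core (GAAA, any 2 bases, GAAA) and CCAAT.
Psmb9: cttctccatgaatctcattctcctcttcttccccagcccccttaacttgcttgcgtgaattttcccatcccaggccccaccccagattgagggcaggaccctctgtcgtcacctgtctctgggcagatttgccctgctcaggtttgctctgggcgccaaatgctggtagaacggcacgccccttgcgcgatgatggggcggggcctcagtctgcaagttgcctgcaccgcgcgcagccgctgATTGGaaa
Psmb8: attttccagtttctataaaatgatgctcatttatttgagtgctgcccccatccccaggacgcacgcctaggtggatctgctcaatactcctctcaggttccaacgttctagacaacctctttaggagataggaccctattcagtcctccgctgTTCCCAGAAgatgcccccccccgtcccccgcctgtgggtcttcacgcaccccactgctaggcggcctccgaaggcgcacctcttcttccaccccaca
Psmb5: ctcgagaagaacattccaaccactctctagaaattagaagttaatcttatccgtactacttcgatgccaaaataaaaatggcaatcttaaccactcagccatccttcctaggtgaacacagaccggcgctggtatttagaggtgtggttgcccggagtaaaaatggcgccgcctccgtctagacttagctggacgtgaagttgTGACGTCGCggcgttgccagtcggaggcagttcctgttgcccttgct
Psmb6: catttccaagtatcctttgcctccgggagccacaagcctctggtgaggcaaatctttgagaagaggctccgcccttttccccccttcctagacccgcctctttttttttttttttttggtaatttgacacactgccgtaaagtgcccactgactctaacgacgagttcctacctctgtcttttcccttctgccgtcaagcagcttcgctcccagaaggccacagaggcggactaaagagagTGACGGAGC
The Psmb5 and Psmb6 sequences each held 1 antioxidant response element core. That of Psmb5 began 47 bases before the start, and that of Psmb6 lay at the end of its sequence, inside the gene model. Psmb8 held 1 Stat motif, which began 97 bases before the start, and Psmb9 held 1 CCAAT on the other strand. Each sequence held 1 match, so no motifs overlapped.

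Over the windows of 300 bases of 42 members, 45 windows in all, 6 (13.3%) held TGACNNNGC, close to the 12.4% of all 32851 windows. TTCNNNGAA was in 3 (6.67%, against 8.30%), the interferon response core in 5 (11.1%, against 3.44%) and CCAAT in 15 (33.3%, against 37.4%). The 5 windows with that core belonged to Psmb3, Psmd4, Psmd9, Psme1 and Psmg4, of which Psme1 codes for a chain of PA28. These matches describe letters in the windows and were not tested as binding sites.

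The 19S ATPases, coded by Psmc1 to Psmc6, form the ring that unfolds substrates. All 6 had ratios below 1 at both times, and 2 were at least 1.5-fold lower at 24 h, where 51.0% and 11.8% of all genes were below 1 and past the limit. Of the 6, 0 were past it with the length trend removed. Their median log2 ratio was -0.20 at 6 h, then -0.55 at 24 h. At 6 h the sign of Psmc1 and Psmc6 turned with TPM. Psmc4 (chromosome 7, 28041702 to 28050092) had 251 CPM in control, 205 CPM at 6 h and 154 CPM at 24 h, 1.63-fold lower at 24 h (1.58 to 1.69). Psmc5 was close to it at -0.72, and Psmc1 stood nearest control, at -0.40.

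The other 19S subunits dock, bind and deubiquitinate substrates. Of 11 such genes, 6 were at least 1.5-fold lower at 24 h (11.8% of all genes) and the median was -0.60. With the length trend removed the median was -0.36, and Psmd3 and Psmd7 were the ones past the limit. Psmd7 (chromosome 8, 107580380 to 107588482) codes for the lid subunit that pairs with the deubiquitinase Psmd14. It had 252 CPM in control, 170 CPM at 6 h and 119 CPM at 24 h, 1.49-fold lower at 6 h (1.45 to 1.52) and 2.12-fold lower at 24 h (2.04 to 2.20). It was the lowest of the 48 members at 24 h, lower than all but 1.41% of measured genes, or 2.52% with the length trend removed. Its partner Psmd14 had 185, 168 and 133 CPM, 1.39-fold lower at 24 h (1.34 to 1.45), an interval apart from that of Psmd7.

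Psmd3, another lid subunit (chromosome 11, 98682554 to 98695978), had 512, 392 and 298 CPM, 1.72-fold lower at 24 h (1.68 to 1.76). Psmd1 (chromosome 1, 86064619 to 86139295), a scaffold of the base, had 373, 350 and 259 CPM. Most of its difference came after 6 h: its log2 ratio was -0.09 at 6 h, with a sign that turned with TPM, and -0.43 from 6 h to 24 h. Psmd2, the other large scaffold, stood nearest control of this set at 24 h, at -0.28.

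**Figure D4:**
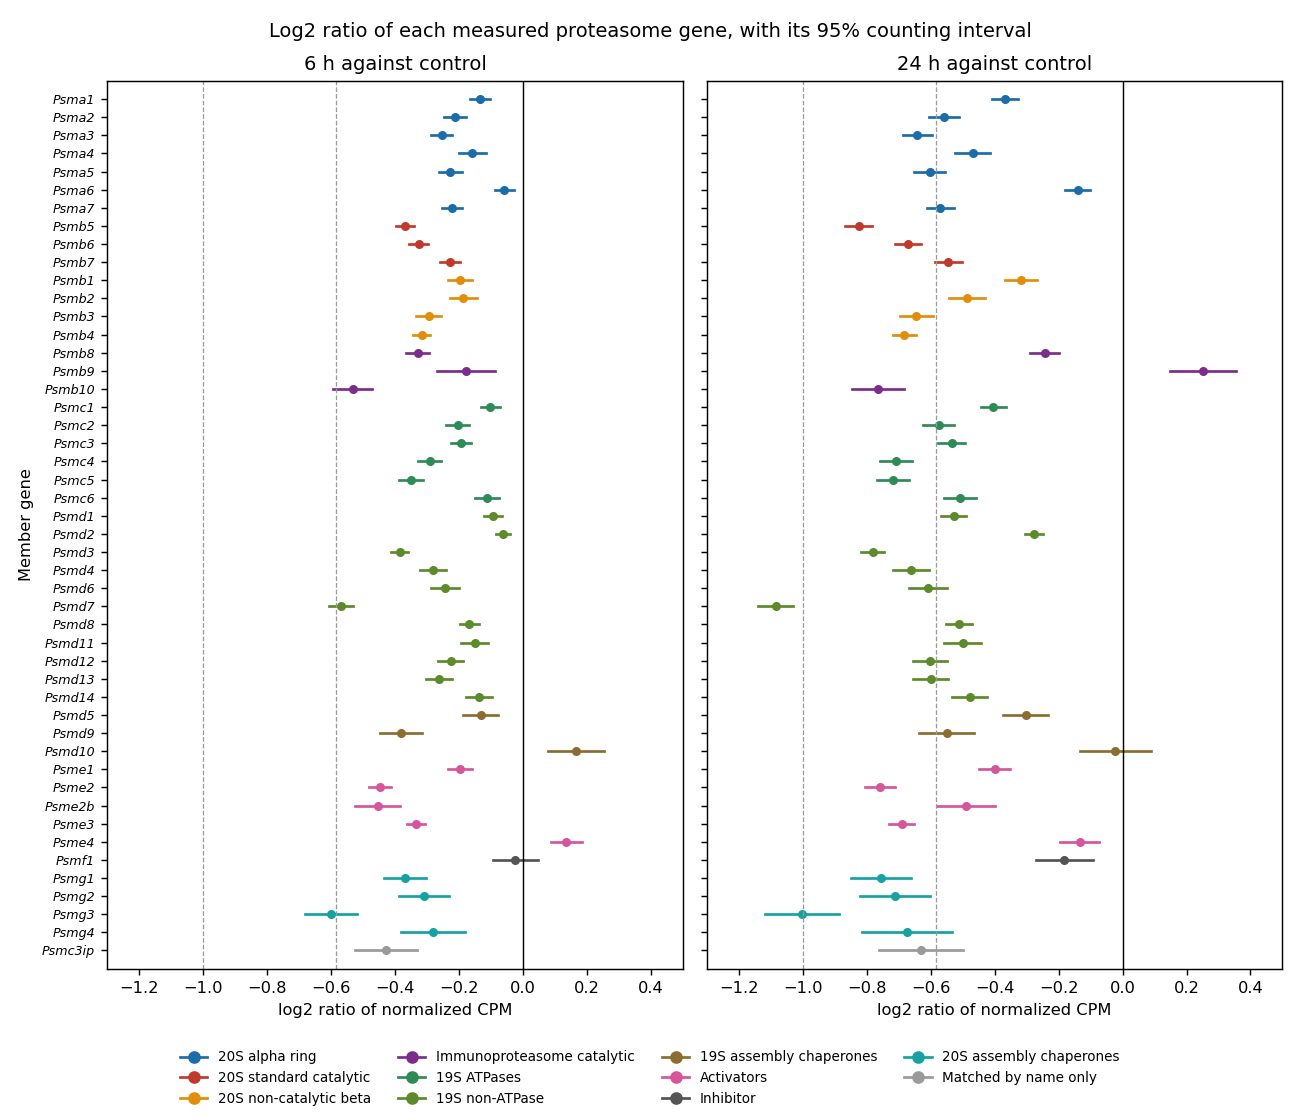
Log2 ratio of normalized CPM to control for each of the 48 measured members at 6 h (left) and 24 h (right), coloured by role, with bars for the 95% counting interval, and dashed lines at 1.5-fold and 2-fold lower. Psmd10 and Psme4 lie right of 0 at 6 h and Psmb9 at 24 h, while Psmd7 and Psmg3 reach the 2-fold line at 24 h.

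Assembly chaperones bring the particle together and do not stay in it. The 4 chaperones of the core, Psmg1 to Psmg4, were all at least 1.5-fold lower at 24 h (11.8% of all genes), with log2 ratios from -1.0 to -0.67. Psmg3 alone of the 4 was past the limit with the length trend removed, at -0.64, and Psmg1, Psmg2 and Psmg4 were at -0.40, -0.36 and -0.31. Psmg3 (chromosome 5, 139823613 to 139826894) had 55.5 CPM in control, 36.6 CPM at 6 h and 27.7 CPM at 24 h, 1.52-fold lower at 6 h (1.43 to 1.6) and 2.0-fold lower at 24 h (1.85 to 2.17). Its interval spans the limit of 2-fold. The log2 ratios of all 4 from 6 h to 24 h lay between -0.40 and -0.39.

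The chaperones of the 19S base, Psmd5, Psmd9 and Psmd10, differed from each other. Psmd9 (chromosome 5, 123228190 to 123250126) had 77.7, 59.6 and 53.1 CPM, 1.46-fold lower at 24 h (1.38 to 1.55). Psmd10 (chromosome X, 140948425 to 140956711), also known as gankyrin, had 36.7, 41.2 and 36.2 CPM. It was highest at 6 h, and at 24 h its ratio to control was 1.02-fold lower with an interval that held no difference (0.941 to 1.10), and its sign turned with TPM, where the log2 ratio was 0.25. Psmd5 was 1.23-fold lower at 24 h (1.17 to 1.30), under the limit.

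Activators open the core in place of the 19S particle. Psme1 and Psme2 code for the chains of PA28, which is known to be raised by interferon gamma like the immunoproteasome subunits, and lie 5912 bases apart on chromosome 14. Psme1 had 226, 197 and 171 CPM in control, 6 h and 24 h, 1.32-fold lower at 24 h (1.28 to 1.36). Its log2 ratio there was -0.05 with the length trend removed. Psme2 had 284, 208 and 168 CPM, 1.69-fold lower at 24 h (1.64 to 1.75), or a log2 ratio of -0.40 with the length trend removed. It shares reads with its near copy Psme2b on chromosome 11, which had 69.1, 50.4 and 49.2 CPM, so the division between them is uncertain. With the reads of both summed, an alternative chosen after seeing the data, the log2 ratio at 24 h was -0.70, beside -0.76 for Psme2 alone.

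Psme3 (chromosome 11, 101316213 to 101323537), the nuclear activator PA28 gamma, had 402, 319 and 249 CPM, 1.62-fold lower at 24 h (1.57 to 1.66). Psme4 (chromosome 11, 30771775 to 30881150), the activator PA200 and the longest member, had 126, 138 and 115 CPM. It was above control at 6 h and 1.10-fold below it at 24 h (1.05 to 1.14), a sign that turned with TPM. With the length trend removed its log2 ratios were -0.05 and -0.47. Psmf1, which codes for the inhibitor PI31, had 59.4, 58.4 and 52.4 CPM, 1.13-fold lower at 24 h (1.07 to 1.21), and its sign also turned with TPM.

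Genes that work with the proteasome but lie outside the name rule were read from fixed lists. All 10 measured partner genes had a ratio below 1 at 24 h and 3 were at least 1.5-fold lower (51.0% and 11.8% of all genes), with a median of -0.42. With TPM 7 of the 10 were below 1 (30.7% of all genes), with a median of -0.14, beside 0.25 over all measured genes. Uchl5, a deubiquitinase of the 19S particle, had 95.6, 73.1 and 53.2 CPM, 1.8-fold lower at 24 h (1.70 to 1.90). Adrm1, the subunit that holds Uchl5, had 271, 199 and 160 CPM, 1.70-fold lower (1.64 to 1.75). Pomp, which matures the core, was 1.59-fold lower (1.52 to 1.66), and Txnl1, a redox protein of the 19S particle, was 1.42-fold lower (1.37 to 1.47). With the length trend removed all 10 were below 1 at 24 h (51.1% of all genes), with a median of -0.48. Uchl5 was then past the limit of 1.5-fold at -0.68, and Adrm1 and Pomp were not, at -0.55 and -0.31. Zfand5, named here after its values were seen, was also past it at -0.63.

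Of the 8 genes of proteasome gene control, 4 had a ratio below 1 at 24 h (51.0% of all genes) and 2 were at least 1.5-fold lower (11.8%). Their median was -0.04 with TMM and 0.22 with TPM, beside -0.01 and 0.25 over all measured genes. The small Maf genes, partners of Nrf factors, had log2 ratios of -0.83 (Maff), -0.59 (Mafg) and -0.53 (Mafk) at 24 h. Ngly1, which removes sugars from Nfe2l1, was at 0.33. Nfe2l1 itself, named here after its values were seen, had 181, 174 and 167 CPM, 1.08-fold lower at 24 h (1.05 to 1.12) with a sign that turned with TPM. Of the 14 measured ubiquitin genes and shuttles, 12 had a ratio below 1 at 24 h (51.0% of all genes), and 7 did with TPM (30.7%). With TMM, 2 were at least 1.5-fold lower, near the share of all genes (11.8%). These were the shuttle genes Rad23b and Ubqln4, at -0.67 and -0.65, followed by Vcp and its cofactor Nploc4 at -0.33 and -0.31. The median of that list was -0.27 with TMM and 0.02 with TPM, beside -0.01 and 0.25 over all measured genes. Its sign turned with the scaling, but it lay below the median of all genes in both.

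The genes that carry proteasome products to MHC class I were mixed. Of 14 measured, 8 had a ratio above 1 at 24 h, where 5272 of all 10754 measured genes did. At least 1.5-fold lower were 2, near the share of all genes (11.8%). The median over the 14 genes was 0.06 with TMM and 0.32 with TPM, beside -0.01 and 0.25 over all measured genes. Nlrc5 and Tap1 were among those at least 1.5-fold higher, a limit that 16.8% of all measured genes passed. Nlrc5, the activator of MHC class I genes, had 17.1, 21.5 and 36.8 CPM, 2.15-fold higher (1.96 to 2.36). Tap1, which carries peptides into the endoplasmic reticulum, had 42.2, 45.8 and 70.1 CPM, 1.66-fold higher (1.56 to 1.77). The chaperone gene Calr was 1.72-fold lower (1.69 to 1.74). With the length trend removed the log2 ratios of Nlrc5, Tap1 and Calr at 24 h were 0.77, 0.75 and -0.61.

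Psmb9 and Tap1 lie head to head on chromosome 17, with 225 bases between their RefSeq gene models, and both were above control at 24 h. In GENCODE M21 their exons overlap by 212 bases on opposite strands. The strand setting of the counting is not given in the sources used here, so reads from that stretch cannot be told apart. Psmb8 lies 969 bases beyond Tap1, and its log2 ratio at 24 h was -0.24, which turned to 0.03 with TPM and 0.06 with the length trend removed.

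**Figure D5:**
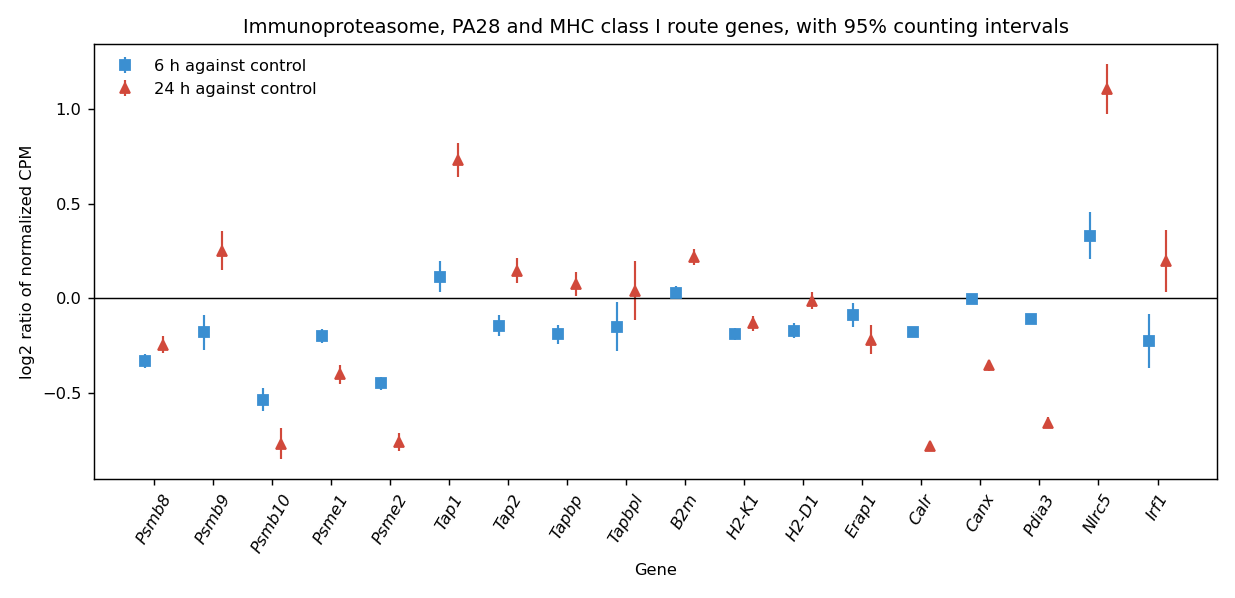
Log2 ratio of normalized CPM to control at 6 h and 24 h for the 3 immunoproteasome genes, the PA28 genes Psme1 and Psme2, and genes of the MHC class I route, with 95% counting intervals. Psmb9, Tap1, Tap2, Tapbp, Tapbpl, B2m, Nlrc5 and Irf1 lie above 0 at 24 h. The other genes plotted lie below 0 at both times, H2-D1 at 24 h and Canx at 6 h by little.

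The summed markers of other cell types stood higher in both treated libraries than in control, while Psmb9 did so at 24 h. The B cell markers Cd79a, Ms4a1, Pax5 and Cd74 were also higher at 24 h than in control, and Cd79b was lower. Of 6 myeloid markers, 4 were measured, and the sum of all 6 was 25.4 CPM in control, 34.3 CPM at 6 h and 59.8 CPM at 24 h, with Lyz2 at 0 in both treated libraries and Cd14 at 0 in control. Of 6 fibroblast and endothelial markers, 3 were measured, with sums over all 6 of 3.72, 7.54 and 13.1 CPM, Col1a2 and Dcn both at 0 in control, and Col3a1 at 0 in both treated libraries. Of 6 T cell markers, 2 were measured, with sums over all 6 of 156, 259 and 261 CPM, of which Lck made up 153, 257 and 259 CPM. The other measured marker, Cd4, went the other way, with 2.90, 1.17 and 1.03 CPM, so the higher T cell sum was that of Lck. The part of these genes in the values of Psmb9 was not tested.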

How the data were processed

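Levels of mRNA were measured in 3 libraries of CH12 cells. Per the submitters' processing notes, CASAVA 1.8.2, STAR, RSEM and bedtools were used with build mm10; the sources used here do not give other versions, the annotation or the strand setting. The deposited expected counts are RSEM estimates, rounded here to whole numbers. TPM was deposited beside them, scaled to effective length, which the files also hold.

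Counts were scaled by TMM (edgeR 4.0.16, R 4.3.3; factors 0.9459, 1.0015 and 1.0556 for control, 6 h and 24 h). Folds are ratios of normalized CPM, with a count of 0 set to 3 counts, and carry exact conditional 95% intervals (Clopper-Pearson). The labels name no molecular identifiers, so intervals cover counting error only. A member was counted at 1.5-fold or 2-fold if its higher library had at least 1 CPM and 30 counts. Expected counts were not whole (over 0.005 from a whole number in some library) for 2 members, Psme2 and Psme2b, and for some genes of other lists, among them Tap1, Tap2, H2-K1 and H2-D1. The length trend was removed by taking off the median of each of 20 bins of effective length. Positions are those of RefSeq on GRCm38.p6, matched by accession for all 50 members, counted from 1. Exons of 8 members overlap another protein-coding gene in GENCODE M21, among them Psmb7 (Nek6), Psmb9 (Tap1), Psmc3ip (Mlx) and, on the same strand, Psme2b. The fold rule was also run on simulated counts that held counting error only, which say nothing of differences between cultures. No count model was fitted, since each group has 1 library.

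Named members were the catalytic and activator genes, the 4 highest and 4 lowest log2 ratios of each comparison, the 3 highest and 3 lowest levels by TPM, those 2-fold apart and those with shared reads; of other lists, up to 4 genes furthest from 0 at 24 h. Other members named in the text were chosen after their values were seen. A gene of the MHC class I list and a cell type marker are not reported here. The members and lists were chosen with earlier results of these data known. Alternatives were TPM, total counts, upper quartile scaling, size factors of DESeq2 1.42.0, no minimum, a minimum of 5 CPM and removal of the length trend.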

Additional observations from a re-analysis of the deposited data

How the results depend on the processing

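The members' median log2 ratio stayed below 0 under each alternative run, in all 3 comparisons. At 6 h, 24 h and 24 h against 6 h it was -0.15, -0.41 and -0.27 with total counts, -0.07, -0.29 and -0.23 with TPM, and -0.10, -0.31 and -0.24 with the length trend removed, beside -0.23, -0.56 and -0.34. With TPM and the median of all genes set to 0, an alternative chosen after seeing the data, it was -0.22, -0.53 and -0.31. The count of members at least 1.5-fold apart at 24 h, 22 with TMM, was 25 with DESeq2 size factors, 18 with upper quartile scaling and with centred TPM, 7 with total counts, 2 with TPM and 5 with the length trend removed (4 lower, and Psmb9 higher). At 6 h, where it was 1, it was 2 with DESeq2 size factors and with no minimum, and 0 with the length trend removed, with TPM and with total counts. At 24 h against 6 h, where it was 0, it was 1 with no minimum. The count at 2-fold at 24 h, 2 with TMM, was 1 with upper quartile scaling and with centred TPM, and 0 with the length trend removed, with TPM and with total counts. The cause of these changes was not tested. The 9 changes in the ratio of an immunoproteasome to a standard subunit lay within their counting intervals with TPM and with the length trend removed. With TPM this was fixed in advance, because a ratio within a library cancels the scaling. Removal of the length trend takes off only the difference between 2 bin medians. Neither is a check of these ratios between cultures. Of 507 alternative values for the 21 named members, 336 lay within the counting interval, 171 outside it, and 0 that passed 1.5-fold changed sign. No minimum and a minimum of 5 CPM leave these ratios unchanged, so their agreement was fixed in advance. TPM put 63 of 63 values outside the interval, total counts 54 and removal of the length trend 52. DESeq2 size factors, upper quartile scaling and centred TPM put all 63 inside. No paired analysis was possible because each group has 1 library, and no library could be left out. Depth was least at 24 h.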
